A study of Mus musculus with 16 samples.

Results

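The genes described here are 9 transcripts made by male germ cells after meiosis starts: Prm1, Prm2, Tnp1, Tnp2, Odf1, Gsg1, Smcp, Akap4 and Ldhc. They were chosen by gene symbol, from probe sets that carry exactly 1 symbol, and they are 9 of the 18194 genes measured, with 17 of the 34958 probe sets of that kind. These members and the marker lists used below were chosen with earlier results of these data known. Their counts beside shares of all genes are therefore descriptions. The series holds 16 one-colour Affymetrix mouse arrays: 8 of the caput, the proximal region of the epididymis, and 8 of the efferent ducts, the tubules through which sperm leave the testis. Each tissue had 4 groups of 2 arrays from adult male 129BL/6 mice. The castrated mice given testosterone propionate (TP), the castrated mice given estradiol (E2) and the castrated mice given vehicle had all lost their testes 14 days before the injection, and the sham mice had been operated on without castration and given vehicle. The hormone dose was 0.015 mg in each case, the vehicle was 100 µL of 10% ethanol in sesame oil, and tissue was taken 12 hours after the injection. The sources used here do not state how many animals stand behind an array or that the 2 arrays of a group came from separate animals, so p-values reflect the spread between arrays, which may be technical. The efferent duct RNA was amplified from 50 ng with the Ovation kit and the caput RNA labelled from 10 µg with the One-Cycle kit, so tissue and kit cannot be told apart.

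In the testis, round and elongating spermatids transcribe genes for packing the nucleus and building the tail, and then fall silent as their chromatin condenses. Transition proteins displace histones, protamines take their place, and many of these messages are stored before they are translated. Mature sperm carry remnants of these messages as they pass through the efferent ducts into the caput. The arrays read whole tissue, so they do not show which cells held these transcripts, and fewer cells of a type and less RNA per cell cannot be told apart.

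The chromatin genes Tnp2, Prm2 and Prm1 lie next to each other within chr16:10787935-10796823 of the mouse build GRCm38.p6, on the minus strand, with Prm3 between Tnp2 and Prm2. The other members lie on chromosomes 1 (Tnp1), 3 (Smcp), 6 (Gsg1), 7 (Ldhc), 15 (Odf1) and X (Akap4). RefSeq promoter entries matched 8 of the 9 members, Odf1 being the exception. The 120 bases before the start are shown once for each of these 8, since these letters can be compared with the shared levels described below, and capitals mark the letters that were searched for. Gsg1, Akap4 and Ldhc have 2 entries each, and the one with a match in these bases is shown. Prm1, Prm2, Tnp2 and Ldhc carry TATAA or its reverse complement TTATA close to the start.
Prm1: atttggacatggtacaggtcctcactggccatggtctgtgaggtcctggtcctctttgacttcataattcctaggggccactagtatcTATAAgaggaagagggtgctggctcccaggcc
Prm2: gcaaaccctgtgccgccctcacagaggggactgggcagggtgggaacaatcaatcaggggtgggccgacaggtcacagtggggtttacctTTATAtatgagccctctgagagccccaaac
Tnp2: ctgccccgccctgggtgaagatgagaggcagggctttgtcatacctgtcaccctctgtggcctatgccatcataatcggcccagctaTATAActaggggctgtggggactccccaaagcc
Ldhc: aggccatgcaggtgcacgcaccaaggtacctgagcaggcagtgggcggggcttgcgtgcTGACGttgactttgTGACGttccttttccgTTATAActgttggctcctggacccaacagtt
Tnp1, Gsg1 and Akap4 carry TGATGTCA or its reverse complement TGACATCA, a variant of the cAMP response element bound by CREM, the factor that activates spermatid genes in mice.
Tnp1: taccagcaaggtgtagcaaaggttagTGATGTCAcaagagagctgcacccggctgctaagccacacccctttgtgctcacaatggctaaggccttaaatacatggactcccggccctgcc
Gsg1: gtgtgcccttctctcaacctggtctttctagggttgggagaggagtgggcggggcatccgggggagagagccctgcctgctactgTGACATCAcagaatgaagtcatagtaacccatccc
Akap4: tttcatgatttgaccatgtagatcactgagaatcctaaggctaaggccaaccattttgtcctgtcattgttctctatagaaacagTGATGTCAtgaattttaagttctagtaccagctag
The printed bases of Smcp held none of the searched letters.
Smcp: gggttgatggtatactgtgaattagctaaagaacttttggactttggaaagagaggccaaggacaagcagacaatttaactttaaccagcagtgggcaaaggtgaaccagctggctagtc
These sequences are Prm1 at chr16:10796824-10796943, Prm2 at chr16:10792106-10792225, Tnp2 at chr16:10788656-10788775, Tnp1 at chr1:73015900-73016019, Smcp at chr3:92589074-92589193 and Gsg1 at chr6:135254337-135254456, all on the minus strand, with Ldhc at chr7:46861143-46861262 and Akap4 at chrX:7067395-7067514 on the plus strand.

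Both strands of the 250 bases before each start were searched with 4 motifs that were picked after these sequences had been read, so the matches are descriptions. Further variants of the cAMP response element were not searched for, so a gene without a match, Prm1 among them, may still carry one. TGATGTCA or TGACATCA occurred in 3 of the 11 promoter entries of the members and in 2.93% of 32851 mouse promoters. Its first base lay 94 bases before the start in Tnp1 and 35 bases before it in Gsg1 and in Akap4. TATAA or TTATA occurred in 6 of the 11 entries and in 22.8% of all promoters, beginning 32 bases before the start in Prm1, 30 in Prm2, 33 in Tnp2 and 31 in Ldhc, and far from it at 174 in Gsg1 and 250 in Smcp. TGACG or CGTCA occurred only in 1 Ldhc entry of the 11, at 61 and 47 bases before the start, and in 17.8% of all promoters. The full palindrome TGACGTCA, which contains TGACG, was in 0 of the 11 entries and in 1.55% of all promoters.

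Values are linear intensities, the brightness of a probe set in arbitrary units, and the deposited values had the same trimmed mean on every array. Background was taken on each array as the highest of 27 Bacillus control probe sets, which was 7.82 to 12.3 in the caput. Efferent duct backgrounds were 2.33 to 3.97 on TP and E2 arrays and 8.09 to 14.3 on castrated and sham vehicle arrays. These duct array sets also differed in the 3′ to 5′ log2 ratio of the actin control probes, 0.91 to 1.93 on TP and E2 arrays against 3.11 to 3.87 on vehicle arrays, so efferent duct comparisons of TP or E2 with a vehicle group cross that gap and comparisons of castrated with sham do not. Tissue labels of the sham arrays were compared with marker lists. Of the efferent duct epithelium genes, 9 of 10 were called higher in sham efferent duct than in sham caput, as were 4260 of all 18194 genes. Of the caput epithelium genes, 6 of 9 were called lower there, as were 5597 of all genes. The labels of the other arrays were not checked in this way. A gene was called when the limma p-value of its brightest probe set, adjusted by Benjamini and Hochberg over all 34958 probe sets, was under 0.05. Log2 differences are as read, so where every array of a group lies under background the difference is not measured and the fold given is a bound, with the readings raised to background. Intensities of different probe sets were not ranked against each other.

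**Figure D1:**
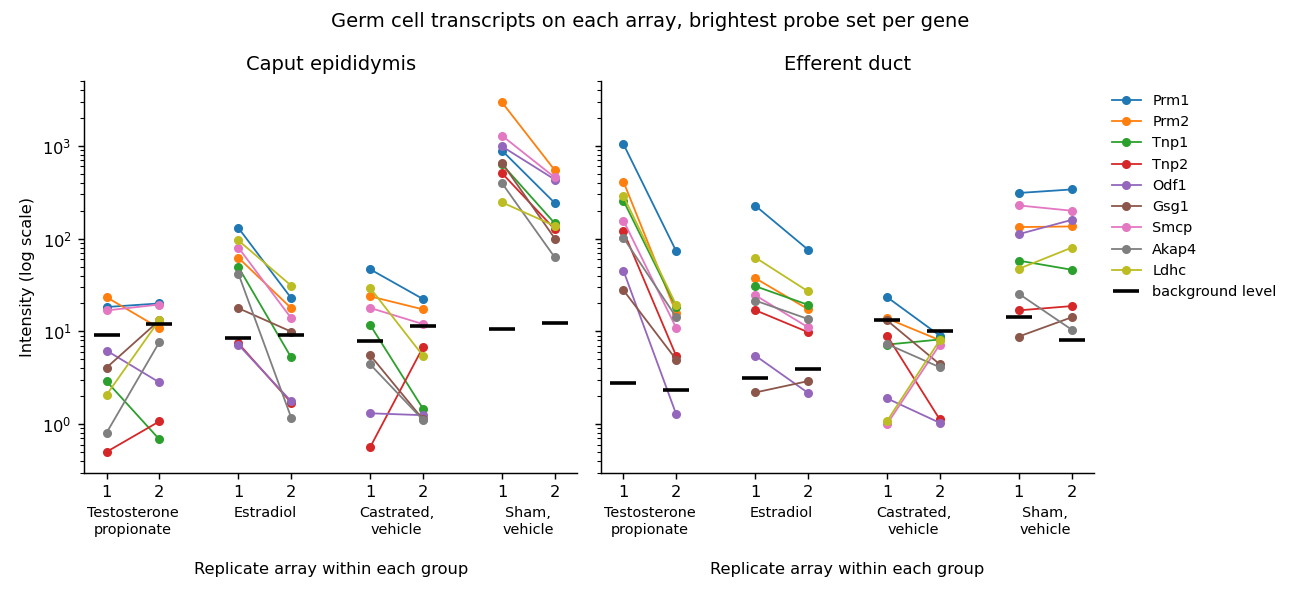
Intensity (log scale) of the brightest probe set of each of the 9 germ cell genes on all 16 arrays, caput left and efferent duct right; lines join a gene's values on the 2 replicate arrays of a group and black bars mark each array's background. All 9 genes stand highest on the caput sham arrays within the caput, while in the efferent duct TP replicate 1 stands above both sham arrays for 7 of 9 genes.

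In the caput, all 9 germ cell transcripts were lower in castrated mice than in sham mice, and 27 of their 54 readings on the arrays of castrated animals were under background, against 0 of 18 on the sham arrays. Both castrated vehicle arrays were below both sham arrays for 9 of 9 members (27.7% of all 18194 genes met that order). All 6 arrays of castrated animals, hormone-treated or not, were below both sham arrays for 9 of 9 members, against 14.7% of all genes. These orders share their sham arrays and are not separate evidence.

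The protamines and transition proteins package the sperm nucleus. Prm1, protamine 1, read 18.3 and 20.0 on the caput TP arrays, 130.1 and 22.8 on the E2 arrays, 46.6 and 22.3 on the castrated arrays, and 889 and 242 on the sham arrays. Prm2, protamine 2, which is made as a precursor and trimmed, read 23.3 and 10.8 with TP, 62.1 and 17.8 with E2, 23.8 and 17.3 in castrated mice, and 2939 and 546 in sham mice. Sham arrays were the highest in each case, and the 2 sham arrays differed 3.68-fold for Prm1 and 5.38-fold for Prm2. Tnp1, transition protein 1, read 2.89 and 0.684 with TP, 49.3 and 5.24 with E2, 11.7 and 1.47 in castrated mice, and 633 and 146 in sham mice. Tnp2, transition protein 2, read 0.503 and 1.07 with TP, 7.41 and 1.70 with E2, 0.566 and 6.75 in castrated mice, and 506 and 126 in sham mice. Tnp2 was above background on 0 of the 6 arrays of castrated animals.

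Of these 4 nuclear genes, Prm2 was called lower in castrated against sham caput: it fell by 5.96 on the log2 scale (adjusted p = 0.0327), a measured 62.4-fold difference with both groups above background. Tnp2 differed by -7.01 and just missed the threshold (adjusted p = 0.0507), Tnp1 by -6.20 (adjusted p = 0.0813) and Prm1 by -3.85 (adjusted p = 0.0828). Because Tnp2 was under background in castrated mice, its intensity was at least 26.7-fold lower there. Tnp1 was under background on castrated replicate 2, and with that reading raised to background it was 26.3-fold lower. The dimmer Tnp1 probe set, above background on every caput array, differed by only 3.44-fold. It read 13.4 and 14.8 in castrated mice and 69.9 and 33.7 in sham mice. In the mean of the 3 castrated groups against sham, all 4 passed: the log2 differences were -3.84 for Prm1 (adjusted p = 0.0393), -5.84 for Prm2 (adjusted p = 0.0154), -6.07 for Tnp1 (adjusted p = 0.0405) and -7.20 for Tnp2 (adjusted p = 0.0215), at least 26.4-fold lower.

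The tail and midpiece genes followed the same order of arrays. Odf1, a protein of the outer dense fibres along the tail, read 6.20 and 2.82 with TP, 7.17 and 1.76 with E2, 1.31 and 1.25 in castrated mice, and 985 and 434 in sham mice. All 6 arrays of castrated animals were under background for Odf1. Smcp, which is located in the mitochondrial sheath of the midpiece, read 16.8 and 19.5 with TP, 80.0 and 13.9 with E2, 17.9 and 12.0 in castrated mice, and 1287 and 456 in sham mice. Akap4, the scaffold protein of the fibrous sheath, read 0.809 and 7.67 with TP, 41.7 and 1.18 with E2, 4.40 and 1.11 in castrated mice, and 395 and 62.8 in sham mice. Of the 3 genes, Odf1 and Smcp fell in castrated against sham caput: Odf1 was at least 69.2-fold lower in intensity (log2 difference -9.0, adjusted p = 0.0106), and Smcp had a measured 52.4-fold difference (-5.71, adjusted p = 0.0308). Akap4 differed by -6.15 with a 95% interval of -11.52 to -0.79 and did not pass (adjusted p = 0.143), being at least 16.7-fold lower with both castrated arrays under background. Of the other 2 Akap4 probe sets, 1 did pass, with a difference of -5.09 (adjusted p = 0.0388), at least 12.6-fold lower.

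Ldhc encodes the germ cell form of lactate dehydrogenase, which serves glycolysis in sperm. It read 2.08 and 13.2 with TP, 95.5 and 31.1 with E2, 29.3 and 5.46 in castrated mice, and 246 and 137 in sham mice. Its difference between castrated and sham caput was -3.86 (adjusted p = 0.124) for this probe set, while its other probe set fell by 7.35 (adjusted p = 0.0194) and was at least 23.5-fold lower. That other probe set read 1.34 and 1.62 with TP, 13.3 and 1.69 with E2, 1.26 and 1.47 in castrated mice, and 258 and 191 in sham mice, so the 2 Ldhc probe sets differed in how much they read on the E2 and castrated arrays. Gsg1, a germ cell-associated gene, read 4.07 and 13.1 with TP, 17.8 and 9.94 with E2, 5.52 and 1.12 in castrated mice, and 655 and 100.3 in sham mice. Gsg1 fell by 6.68 (adjusted p = 0.0392) and was at least 27.1-fold lower in intensity.

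Counted together, 4 of 9 members were called lower in castrated against sham caput (Prm2, Odf1, Gsg1 and Smcp), and 3.61% of all probe sets were called lower. The median difference of the members was -6.15, or -4.74 with readings under background raised to it, and the median of all genes was 0.06. All 9 had an unadjusted p under 0.05, as did 5508 of 18194 genes. With any 1 of the 4 compared arrays left out, 0 of 9 passed, and with an intensity trend in the variance prior 9 of 9 passed. In the pooled comparison of the 3 castrated groups with sham, 7 of 9 were called lower, against 6.7% of all probe sets. Akap4 (-5.54, adjusted p = 0.0914) and Ldhc (-3.58, adjusted p = 0.0733) were the exceptions by their brightest probe sets, although 14 of the 17 probe sets of the 9 genes passed, 2 of Akap4 and 1 of Ldhc among them. In place of 7, 0 members were called without sham replicate 1, 2 without sham replicate 2, and 3 to 6 without any other single array.

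**Figure D2:**
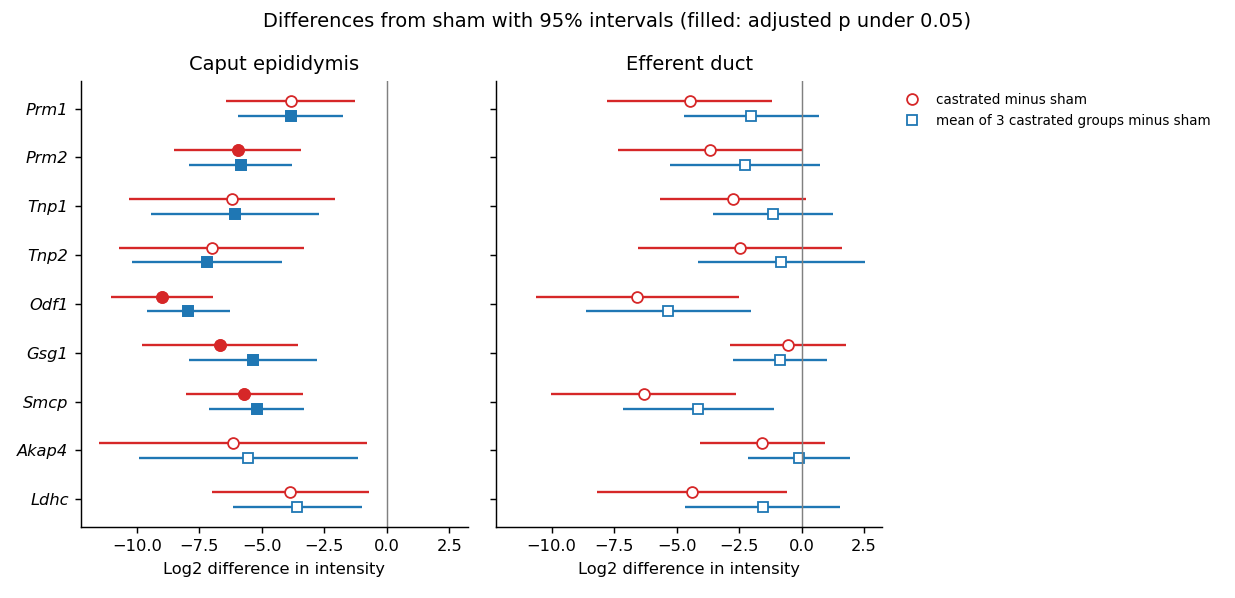
Log2 differences in intensity from sham with 95% intervals for the 9 germ cell genes, caput left and efferent duct right; circles are castrated minus sham, squares the mean of the 3 castrated groups minus sham, and filled symbols passed an adjusted p under 0.05. All estimates are below 0 in both tissues, and filled symbols occur in the caput panel alone, with wide intervals throughout.

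No member passed between any 2 of the castrated groups in the caput. By limma, 0 of 9 members passed for TP against castrated vehicle (0.646% of all probe sets did). There 0 members and 3221 of 18194 genes had an unadjusted p under 0.05. For E2 against castrated vehicle 0 of 9 passed, with 0 at an unadjusted p under 0.05, and 0% of all probe sets were called, with 2399 of 18194 genes at an unadjusted p under 0.05. For TP against E2 it was 0 of 9, with 1 at an unadjusted p under 0.05 (Ldhc, -3.38, adjusted p = 0.301), and 0.724% of all probe sets. An unadjusted p under 0.05 was reached there by 2956 of 18194 genes. The TP and castrated comparisons with E2 share the E2 arrays, and those arrays differed from each other: E2 replicate 1 was the highest of the 6 castrated-animal arrays for 9 of 9 members, which held for 21.6% of all genes, although Tnp2 and Odf1 were under background on all 6. Over the 9 members the median ratio of E2 replicate 1 to replicate 2 was 4.35 as read and 3.48 with readings raised to background, where the highest ratio was 5.76, for Smcp. Summed over the 9 genes, intensity was 491 on E2 replicate 1 and 105 on replicate 2, while the sum of 9 macrophage markers was 2550 and 2649 on these arrays. The intervals are wide, for example -3.33 to 1.83 for Prm1 in TP minus castrated vehicle, so differences within such intervals were not detectable.

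The amount of these transcripts also varied within the sham caput. Replicate 1 was above replicate 2 for 9 of 9 members, with ratios from 1.80 for Ldhc to 6.53 for Gsg1 and a median of 4.02. By a like count, 8 of 9 members were at least 2-fold higher on replicate 1, with Ldhc the exception. Among the 9648 genes with an intensity over 64 on either array, 1.12% were at least 2-fold higher on replicate 1. On replicate 2, 0.477% of them were at least 2-fold higher. The caput epithelium list, 9 genes of the secretory lining, summed to 66782 and 66567 on the same arrays, and the macrophage list to 1854 and 1828. The 9 members were therefore unequal on 2 arrays that were close in the epithelial and macrophage sums.

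**Figure D3:**
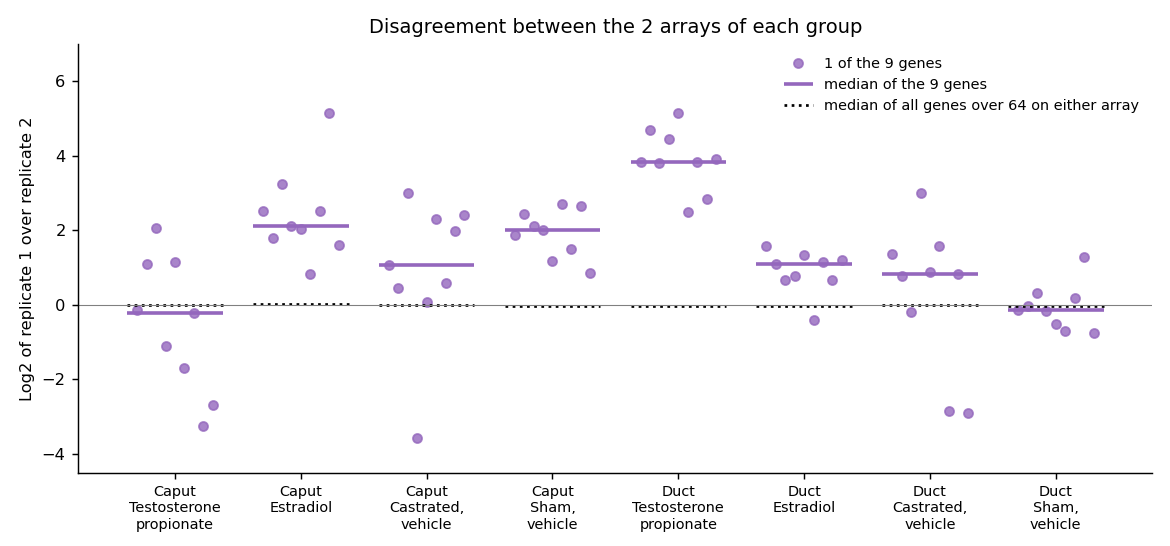
Log2 ratio of replicate 1 to replicate 2 for each of the 9 genes (points) in the 8 groups, with their median (bar) and the median of all genes with an intensity over 64 on either array (dotted line). The points are as read, some with 1 or both arrays under background. The all-gene medians lie at about 0, and the members' medians lie furthest from 0 in efferent duct TP, caput E2 and caput sham.

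Other spermatid genes were read from 4 further lists with 52 measured genes. In castrated against sham caput, 6 of 52 were called lower and 0 higher, beside 815 of all 18194 genes lower and 937 higher. Of the 52 differences 44 were negative, with a median of -1.47 against 0.06 for all genes. The 6 were Hils1, a linker histone-like protein of spermatids (-4.73, adjusted p = 0.0145), Oaz3, the testis form of antizyme (-5.11, adjusted p = 0.0315), the testis kinases Tssk6 (-3.64, adjusted p = 0.0393) and Tssk3 (-4.87, adjusted p = 0.0250), the acrosomal gene Dkkl1 (-2.43, adjusted p = 0.0255) and the actin-like Actl7b (-1.15, adjusted p = 0.0335), all named because they were called. Oaz3 read 13.9 and 9.21 on the castrated caput arrays and 601 and 255 on the sham arrays. With the 3 castrated groups against sham, 14 of 52 were called lower and 1 higher, the transcription factor Rfx2 (1.26, adjusted p = 0.0316). Of all 18194 genes, 1308 were called lower and 1723 higher in that comparison. Genes for the tail and energy supply gave the most calls, 8 of 18 lower, including the spermatid glycolytic enzyme Pgk2 (-5.50, adjusted p = 0.0348) and the calcium-binding sheath protein Cabyr (-3.77, adjusted p = 0.0173). The chromatin and transcription list gave 1 of 10 lower and 1 higher. Crem itself read 62.7 and 66.4 with TP, 89.6 and 83.8 with E2, 106 and 103 in castrated mice, and 96.7 and 82.1 in sham mice, with no gap between castrated and sham arrays of the size seen for the members.

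Lists of earlier germ cells and of testicular somatic cells were read beside these changes. For castrated against sham caput, 815 of all 18194 genes were called lower. The 16 spermatocyte genes summed to 63.0 to 163 on the 6 caput arrays of castrated animals and 273 to 279 on the sham arrays, and 2 of 16 were called lower in castrated against sham, with 10 differences negative, 6 positive and a median of -0.27. Of the 4 named by their sham level, Spo11, which makes the breaks of meiotic recombination, differed by -2.27 (adjusted p = 0.0506) and Mael by -5.18 (adjusted p = 0.101), while Dmc1 differed by 0.34 (adjusted p = 0.711) and Sycp3 by 0.04 (adjusted p = 0.961). The 9 spermatogonia genes summed to 635 to 1406 on castrated-animal arrays and 1753 to 1820 on sham arrays, with 1 of 9 called lower in castrated against sham, 6 differences negative and 3 positive. The 5 Leydig cell genes summed to 54.5 to 89.4 on the castrated-animal arrays and 196 to 206 on the sham arrays. Of the Leydig cell genes 3 differences were negative and 2 positive, with a median of -0.28. Cyp11a1, the first enzyme of steroid synthesis, was called lower (-1.55, adjusted p = 0.0161), while Cyp17a1 differed by -2.51 (adjusted p = 0.0685), Hsd17b3 by 1.23 (adjusted p = 0.529) and Star by 0.02 (adjusted p = 0.970). The 8 Sertoli cell genes summed to 422 to 545 on castrated-animal arrays and 474 to 515 on sham arrays, overlapping. The caput epithelium list, summing to 4422 to 14938 on castrated-animal arrays and 66567 to 66782 on sham arrays, had 8 of 9 genes called lower in castrated against sham. The part of these other cell types in the members' differences was not tested.

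In the efferent duct, no member passed the test of castrated against sham, although both castrated arrays were below both sham arrays for 8 of 9 members, with Gsg1 the exception, and for 23.1% of all genes. For Akap4 that order rests on readings under background, since the background of castrated replicate 1 (13.2) exceeded its level on sham replicate 2 (10.5). By limma 0 of 9 members passed (0.129% of all probe sets were called lower). An unadjusted p under 0.05 was reached by 4 of 9 members and 2642 of 18194 genes. The members' median difference was -3.67 as read, -2.41 with readings raised to background, and that of all genes 0.02. For 7 of 9 members no castrated array was above background. Members above background numbered 2 and 0 on the castrated arrays and 8 and 9 on the sham arrays.

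Among the nuclear genes, Prm1 read 1043 and 73.3 on the efferent duct TP arrays, 227 and 76.0 on the E2 arrays, 23.4 and 8.99 on the castrated arrays, and 311 and 339 on the sham arrays. Prm2 read 410.4 and 15.8 with TP, 37.4 and 17.4 with E2, 13.8 and 8.03 in castrated mice, and 133 and 135 in sham mice. For both protamines the 2 sham arrays were nearly equal, while the 2 TP arrays were 14.2-fold apart for Prm1 and 26.0-fold for Prm2. Tnp1 read 256 and 18.3 with TP, 30.7 and 19.3 with E2, 7.20 and 8.17 in castrated mice, and 57.9 and 46.2 in sham mice. Tnp2 read 119.8 and 5.44 with TP, 16.9 and 9.82 with E2, 8.98 and 1.12 in castrated mice, and 16.8 and 18.7 in sham mice. Castrated against sham, Prm1 differed by -4.48 (adjusted p = 0.247), Prm2 by -3.67 (adjusted p = 0.354), Tnp1 by -2.75 (adjusted p = 0.376) and Tnp2 by -2.48 (adjusted p = 0.537). The Prm1 probe sets disagreed in size: the brightest was 22.4-fold lower as read, another 17.8-fold and another only 2.39-fold. The last was above background on every efferent duct array and read 31.7 and 50.8 in castrated mice and 93.0 and 98.8 in sham mice. Both castrated arrays were under background for Tnp1 and Tnp2, so only bounds were measured, at least 4.48-fold lower for Tnp1 and at least 1.54-fold lower for Tnp2.

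Of the tail genes, Odf1 read 45.0 and 1.28 with TP, 5.48 and 2.17 with E2, 1.89 and 1.03 in castrated mice, and 112 and 159 in sham mice. Smcp read 156 and 10.9 with TP, 24.5 and 11.1 with E2, 1.00 and 7.20 in castrated mice, and 228 and 199.9 in sham mice. For these 2 genes every array of a castrated animal, TP replicate 1 included, was below both sham arrays. Odf1 was at least 11.6-fold and Smcp at least 18.5-fold lower in castrated than in sham efferent duct, with log2 differences of -6.58 (adjusted p = 0.190) and -6.31 (adjusted p = 0.177). Akap4 read 102 and 14.2 with TP, 21.5 and 13.6 with E2, 7.30 and 4.10 in castrated mice, and 25.4 and 10.5 in sham mice, and it differed by -1.57 (adjusted p = 0.525). Akap4 too was under background on both castrated arrays and was at least 1.41-fold lower.

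Ldhc read 287 and 19.2 with TP, 62.5 and 27.0 with E2, 1.08 and 8.05 in castrated mice, and 47.3 and 79.9 in sham mice. Ldhc was at least 5.32-fold lower in castrated than in sham mice (-4.38, adjusted p = 0.301). Gsg1 read 27.7 and 4.97 with TP, 2.19 and 2.91 with E2, 13.1 and 4.41 in castrated mice, and 8.80 and 14.2 in sham mice. Gsg1 was under background on both castrated arrays and on sham replicate 1, and it differed by -0.55 (95% interval -2.87 to 1.76, adjusted p = 0.817). The 3 castrated groups together against sham gave 0 of 9 members called (3.16% of all probe sets were called lower), with 2 at an unadjusted p under 0.05, Odf1 (-5.33, adjusted p = 0.0612) and Smcp (-4.13, adjusted p = 0.0841). In that comparison 6486 of 18194 genes had an unadjusted p under 0.05. Of the 17 probe sets 1 passed, a dimmer one of Odf1 that fell by 2.39 (adjusted p = 0.0496), while a dimmer one of Akap4 differed by 3.39 (adjusted p = 0.0656) from sham readings that were under background.

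Efferent duct TP replicate 1 stood apart from its partner. It was the highest of the 8 efferent duct arrays for 7 of 9 members, against 17% of all genes, with Odf1 and Smcp the exceptions. Replicate 1 was above replicate 2 for 9 of 9, with ratios from 5.59 for Gsg1 to 26.0 for Prm2 where both arrays were above background, at least 19.3 for Odf1, and a median of 14.4. All 9 were thus at least 2-fold higher on replicate 1, though Gsg1 and Odf1 did not reach 64 on either TP array. Among the 10590 genes with an intensity over 64 on either array, 2.88% were at least 2-fold higher on replicate 1. On replicate 2, 0.670% of them were at least 2-fold higher. Against the mean of the 2 sham arrays, TP replicate 1 was 6.74 times as high for Tnp2, 5.69 times for Akap4, 4.92 times for Tnp1, 4.51 times for Ldhc, 3.21 times for Prm1, 3.06 times for Prm2 and 2.42 times for Gsg1. It was 0.731 times the sham mean for Smcp and 0.332 times for Odf1. The members thus differed from each other in how TP replicate 1 compared with sham, which is a description of 1 array with no replicate. These folds also cross the gap between the hormone and vehicle array sets of the efferent duct. The highest reading of any probe set was 3218 to 4517 on TP and E2 arrays and 14456 to 19967 on vehicle arrays. The part of this gap in the folds was not tested.

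The TP comparison in the efferent duct gave no call among the members. By limma 0 of 9 passed for TP against castrated vehicle (28.3% of all probe sets were called), with 5 at an unadjusted p under 0.05. Of all 18194 genes, 8432 had an unadjusted p under 0.05 there. The differences nearest the threshold were Prm1 (4.25, 95% interval 0.96 to 7.54, adjusted p = 0.0627) and Ldhc (4.65, 95% interval 0.85 to 8.46, adjusted p = 0.0723), for which at least 6.43-fold was measured because both castrated arrays were under background. Without TP replicate 1, Prm1 differed by 2.34 (adjusted p = 0.162) and Odf1 by -0.13 (adjusted p = 0.922), all its readings then under background, with 0 of 9 called. Without TP replicate 2, 6 of 9 passed, among them Prm1 at 6.17 (adjusted p = 0.0347), a comparison that rests on the lone TP replicate 1 and assumes it varies like the other groups. E2 against castrated vehicle gave 0 of 9 called (23.2% of all probe sets), with 0 at an unadjusted p under 0.05 and Ldhc nearest (3.80, adjusted p = 0.130), at least 3.56-fold higher. For E2 against castrated vehicle 7603 of 18194 genes had an unadjusted p under 0.05. TP against E2, which compares arrays of similar background, gave 0 of 9 called and 0% of all probe sets, with 0 members and 1359 of 18194 genes at an unadjusted p under 0.05. The TP and E2 comparisons share the castrated arrays, whose backgrounds were 13.2 and 10.1, above those of all hormone arrays, and the part of that difference in the members' values was not tested.

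Markers of other cells also differed between the 2 efferent duct TP arrays. The 9 macrophage genes, all above background on every array, summed to 5108 and 2763 on the TP arrays, 4606 and 2982 on the E2 arrays, 2208 and 1309 on the castrated arrays, and 2115 and 2847 on the sham arrays. The macrophage marker Adgre1 read 563 and 146 with TP, 314 and 164 with E2, 43.6 and 29.8 in castrated mice, and 30.5 and 58.7 in sham mice. Csf1r of the same list did not follow that order. It read 967 and 753 with TP, 1055 and 836 with E2, 1166 and 548 in castrated mice, and 1095 and 1502 in sham mice. For TP against castrated vehicle, 9 of the 9 macrophage differences were positive and 6 were called, beside 3783 of 18194 genes called higher. The 9 caput epithelium genes summed to 2014 and 211 with TP, 116 and 664 with E2, 163 and 56.1 in castrated mice, and 3107 and 7443 in sham mice. On TP replicate 1 that sum held Adam7 at 1007, Gpx5 at 676 and Lcn5 at 251, while Rnase10 was at 5.92 and Lcn8 at 10.4. Gpx5 read 27.3 and 576 on the sham arrays. Their part in the members' readings was not tested. Spermatocyte genes summed to 408 and 296 with TP, 495 and 386 with E2, 399 and 419 in castrated mice, and 361 and 301 in sham mice, with no gap of the members' size.

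**Figure D4:**
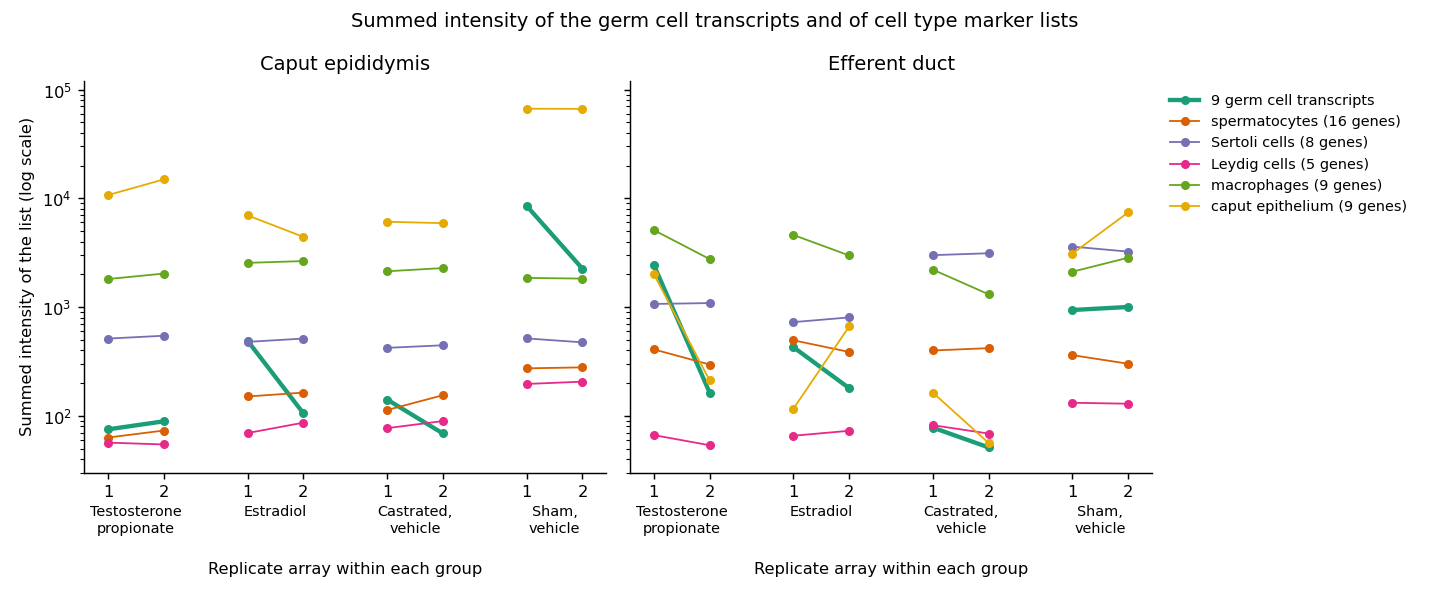
Summed intensity (log scale) of the 9 germ cell genes and of 5 cell type marker lists on each array, caput left and efferent duct right. The germ cell sum in the caput is 68.7 to 491 on the arrays of castrated animals and 8535 and 2251 on the sham arrays, and in the efferent duct TP replicate 1 stands at 2447 beside sham sums of 940 and 1003.

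None of the 52 other spermatid genes passed between castrated and sham efferent duct. By limma 0 of 52 were called in either direction, with 30 negative differences and a median of -0.19, against 0.02 for all genes. Of all 18194 genes only 39 were called there, so 0 of 52 does not set these genes apart. An unadjusted p under 0.05 was reached by 5 of 52, and by 2642 of all 18194 genes. Oaz3 read 111 and 94.8 in castrated and 293 and 219 in sham efferent duct, and Tssk6 read 14.5 and 20.5 in castrated and 26.6 and 15.8 in sham. TP against castrated vehicle gave 3 of 52 higher and 1 lower, a share of calls under the 28.3% of all probe sets.

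Between tissues, sham mice had lower readings of all 9 members in the efferent duct than in the caput by the fitted difference, and 1 of 9 was called, Gsg1 (-4.52, adjusted p = 0.00869), against 32.4% of all probe sets called lower. The members' median was -2.56 and that of all genes -0.30. Since the design text says that both tissues were collected from each sample, arrays of the same treatment and number were also fitted as a block, and then Prm2 (-3.24, adjusted p = 0.0370) passed beside Gsg1 (adjusted p = 0.0264). Without caput sham replicate 1, 0 of 9 passed and Prm1 differed by 0.42 in place of -0.52. The castration effect, castrated minus sham in the efferent duct less the same in the caput, gave 0 of 9 members called by limma (1.67% of all probe sets), with 1 at an unadjusted p under 0.05, Gsg1 (6.13, 95% interval 2.44 to 9.82, adjusted p = 0.101), which was under background on the castrated arrays of both tissues. For this effect 3282 of 18194 genes had an unadjusted p under 0.05. A difference between the tissues in the response to castration was therefore not shown for any member, and the intervals run over several log2 units.

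Ordered by the mean log2 intensity of the 9 members, the caput arrays read 2.08 and 2.61 with TP, 2.99 and 2.06 in castrated mice, 5.20 and 2.77 with E2, and 9.53 and 7.61 in sham mice, and only sham was clear of its neighbours. In the efferent duct the means were 2.44 and 2.16 in castrated mice, 4.52 and 3.62 with E2, 7.34 and 3.45 with TP, and 5.92 and 5.97 in sham mice. The E2 and the sham arrays lay within the span of the TP arrays. With readings raised to background the efferent duct means were 3.82 and 3.33 in castrated mice, 4.58 and 3.77 with E2, and 7.34 and 3.54 with TP, so the castrated arrays were not clear of the E2 and TP arrays, while both sham arrays (6.00 and 5.97) were above both castrated arrays. As read, each member followed this mean closely across the 8 arrays of a tissue, with Pearson r from 0.87 (Ldhc) to 0.99 (Smcp) in the caput and from 0.84 (Akap4) to 0.99 (Prm2) in the efferent duct, except Gsg1 in the efferent duct at 0.55. The members are part of that mean and share arrays, so these values describe likeness alone.

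Among 9843 genes that reached an intensity of 64 on at least 1 array of each tissue, the 10 most like the members' mean (by the lower of the caput and efferent duct Pearson r over 8 arrays each) were 4933411K16Rik (0.927), Gm9999 (0.919), Crisp2 (0.914), Mael (0.908), Iqcf3 (0.903), Tmem256 (0.902), Dbil5 (0.893), Mocos (0.872), Fabp9 (0.870) and Spata4 (0.864). In the efferent duct, 4933411K16Rik, Crisp2, Mael, Iqcf3, Fabp9 and Spata4 reached 64 on TP replicate 1 alone. Mael reached it in the caput on sham replicate 1 alone (65.0). The members are also high on these arrays, and readings under background were used as read. The ranking is therefore a description. Crisp2, a cysteine-rich protein of the acrosome and tail, read 5.52 and 11.6 in castrated and 454 and 199 in sham caput, and 69.5 and 8.60 with TP, 4.52 and 3.97 in castrated and 35.4 and 39.5 in sham efferent duct. Fabp9, a fatty acid binding protein of spermatids, read 8.70 and 9.53 in castrated and 117 and 58.4 in sham caput, and 170.5 and 7.37 on the efferent duct TP arrays. Tmem256 and Mocos were bright on every array, Tmem256 at 486 and 546 in castrated and 790 and 820 in sham caput, so their likeness lies in the order of the arrays.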

How the data were processed

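RNA of 2 tissues was read on 16 one-colour arrays, 2 per group. The deposited values are linear intensities of 45101 probe sets. The submitters' processing notes name RMA, with no version, while the values are not on a log scale and their mean without the top and bottom 2% is 125 on every array. Array number limits the precision. Probe sets were named from the platform annotation: 34958 carried 1 symbol and were tested, 932 carried several and 9211 none. The log2 of these intensities went into limma 3.58.1 (R 4.3.3), with 1 fit per tissue (8 arrays, 4 groups) and 1 fit of all 16 arrays for contrasts between tissues. Benjamini-Hochberg adjustment ran over all tested probe sets, with a threshold of 0.05. Further tables were made in Python 3.11.15 (pandas 2.3.3) and plots with matplotlib 3.10.9. The fit was tested on simulated data.

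The named genes were all 9 members, each called by its probe set of highest mean intensity. Of each list, up to 4 genes with the highest sham intensity could be named whatever their change, and of the likeness ranking the first 10. Genes named because they were called, Rfx2, Pgk2, Cabyr, Hils1 and the single macrophage and epithelial markers were chosen after their values were seen. The members and lists were chosen with earlier results of these data known. A group with every array at or under background has only a bound, "at least N-fold", computed with its readings raised to background, and array means, order and replicate ratios were also computed so, an alternative chosen after seeing the data. Alternatives were 1 value per gene, the 40% dimmest probe sets left out, quantile normalization, a floor of 16, an intensity trend, 1 fit of all arrays, only the arrays compared, a block on replicate number, and leaving out single arrays.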

Additional observations from a re-analysis of the deposited data

Results flagged for a closer look

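For Prm1, TP against castrated vehicle ran in opposite directions in the tissues: both TP arrays were above both castrated arrays in the efferent duct and below both in the caput, and the log2 difference in the efferent duct less that in the caput was 5.01. For Gsg1, both E2 arrays were below both castrated arrays in the efferent duct and above both in the caput, and the same quantity for E2 against castrated vehicle was -4.01, with the efferent duct E2 and castrated arrays all under background. In the caput Prm1 read 18.3 and 20.0 with TP and 46.6 and 22.3 in castrated mice. In the efferent duct its TP arrays read 1043 and 73.3, and TP against castrated vehicle there crosses the gap between hormone and vehicle arrays. Prm1 was not called for TP against castrated vehicle in either tissue. Neither the Prm1 nor the Gsg1 difference between tissues was tested.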

How the results depend on the processing

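Of 169 refits of the 12 called member differences, 116 kept the call, 53 lost it and 0 changed direction. Of 409 refits of the 33 differences not called, 347 stayed so, 57 were called and 5 changed direction. The causes were not tested. In castrated against sham caput (4 members called), the intensity trend gave 9 and the fit of only the arrays compared gave 0, with 0 in every refit that left out an array. In the 3 castrated groups against sham caput (7 called), 4 were called with the dimmest probe sets left out, where only 4 members' brightest probe sets were tested, and 0 to 6 with an array left out. In castrated against sham efferent duct (0 called), the trend gave 3 and 1 fit of all arrays 2. In the 3 castrated groups against sham efferent duct (0 called), 1 was called with the brightest probe set per gene, with the dimmest left out and with the floor, and 2 with the trend and with 1 fit of all arrays. In efferent duct TP against castrated (0 called), 3 were called with the dimmest left out, 5 with the trend, 3 with 1 fit of all arrays and 0 to 6 with an array left out. With the replicate block that comparison called 2, Prm1 (adjusted p = 0.0432) and Akap4 (adjusted p = 0.0402). Efferent duct E2 against castrated (0 called) gave 2 with the trend. In sham efferent duct against sham caput (1 called), the mean of probe sets gave 2, the floor 4, the trend 3, only the arrays compared 2, the replicate block 2 and leaving out an array 0 to 1. The castration effect between tissues (0 called) gave 1 with the floor and 1 with the trend.

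With an array left out, the log2 difference ranged from -1.34 to 0.23 for Gsg1 in castrated against sham efferent duct, from -0.13 to 5.01 for Odf1 (the lower value from readings all under background) and from -0.62 to 1.87 for Gsg1 in efferent duct TP against castrated (Gsg1 -0.16 without castrated replicate 2), and from -1.45 to 0.42 for Prm1 in sham efferent duct against sham caput. Over all probe sets, castrated against sham caput called 2788, and 86 to 203 with an array left out, 6719 with the trend, 1074 with the replicate block and 0 with only the arrays compared. Castrated against sham efferent duct called 72, and 0 with any array left out, 1337 with 1 fit of all arrays and 0 with the replicate block. Efferent duct TP against castrated called 9877, and 0 to 6731 with an array left out. Within a tissue the deviations of same-numbered arrays correlated at -0.17 to 0.086 between groups, over 14788 probe sets. Between tissues at the same treatment the correlations were 0.12 for TP, 0.028 for E2, -0.019 for castrated and 0.044 for sham. Such values cannot settle whether arrays with the same number share animals, which was not tested. Low intensity limits the castrated vehicle groups, where 26 of 36 member readings lie under background.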
